A study of Caenorhabditis elegans with 2 samples.

Results

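MicroRNA genes were examined for ChIP-seq signal of HAM-2, a zinc-finger protein of Caenorhabditis elegans, in embryos. The members were all 261 genes that Ensembl release 115 annotates as microRNA genes on the 6 nuclear chromosomes, out of 46890 nuclear genes of every class. For each gene the strongest peak summit within 250 bp and within 1000 bp of any of its bases was read in 4 deposited peak lists. A gene with a summit of the reproducible list within that distance is called a microRNA gene with a reproducible summit.

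ChIP-seq recovers DNA bound by a protein with an antibody, here one against GFP, and sequences it. Per the labels, both libraries, biological replicates 6 and 7, came from strain OP639 and form a single group. The transgene wgIs639 carries ham-2::TY1::EGFP::3xFLAG together with the rescue unc-119(+), and the animals carry the unc-119 (tm4063) mutation that this rescue covers. The state of the chromosomal ham-2 gene is not given in the labels, and the GFP antibody recovers the tagged protein. The worms were mixed-sex, mixed-stage embryos aged 3 hours, obtained by egg bleaching, and represent 1 transgenic line. Chromatin came from whole embryos, so the cells that gave a peak cannot be told apart. Each list holds, for every peak, the authors' own signal value, which has no stated unit or scaling, so signals are compared within a list and lists are related by rank. The reproducible list holds 1945 peaks, which are also rows of the pooled list of 30000 peaks, with signals from 105.3 to 1164. The list of replicate 6 holds 28414 nuclear peaks and that of replicate 7 holds 30000.

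MicroRNAs are short RNAs cut from hairpin precursors by Drosha and Dicer. Loaded into an Argonaute protein, they pair through their seed with messenger RNAs and reduce translation or stability of the target. MicroRNAs that share a seed form a family and can stand in for each other. In C. elegans the mir-35 and mir-51 families are needed for embryonic development, while lin-4 and let-7 time larval development through lin-14 and lin-41.

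The sequences shown here are the mature microRNAs of the families that the results turn on, read from the RefSeq annotation and genome of WBcel235 (the same assembly as ce11) in the 5′ to 3′ direction of the gene's own strand. Capitals mark the seed, bases 2 to 8. In the mir-51 family the seed ACCCGUA lies in the 5p arm of mir-51, mir-52 and mir-53 and in the 3p arm of mir-54, mir-55 and mir-56, and the 6 genes sit at 3 places.
mir-51 5p: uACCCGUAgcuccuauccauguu
mir-52 5p: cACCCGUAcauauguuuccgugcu
mir-53 5p: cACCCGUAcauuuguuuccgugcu
mir-54 3p: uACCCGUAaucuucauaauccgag
mir-55 3p: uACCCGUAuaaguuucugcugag
mir-56 3p: uACCCGUAauguuuccgcugag
In the mir-35 family the seed CACCGGG is the 3p one of all 8 members, of which 7 lie side by side and mir-42 apart. Their flanking bases differ after the seed.
mir-35 3p: uCACCGGGuggaaacuagcagu
mir-38 3p: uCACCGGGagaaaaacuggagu
mir-41 3p: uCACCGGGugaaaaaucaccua
mir-42 3p: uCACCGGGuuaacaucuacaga
In the bantam (mir-58) family, named for its Drosophila relative, mir-58.1 differs from mir-80, mir-81 and mir-82 in the last base of the seed.
mir-58.1 3p: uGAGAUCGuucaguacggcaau
mir-80 3p: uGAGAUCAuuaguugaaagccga
mir-81 3p: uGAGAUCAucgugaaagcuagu
mir-82 3p: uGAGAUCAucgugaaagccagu
The timing microRNAs let-7 and lin-4 are shown for comparison, because neither had a reproducible summit.
let-7 5p: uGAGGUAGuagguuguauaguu
lin-4 5p: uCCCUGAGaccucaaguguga

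The DNA under the strongest summits is shown as 100 bases around each summit on the plus strand of ce11. Capitals mark the fixed words searched, on either strand: CTCCGCCC (reported upstream of nematode microRNA genes), TTAGGC (the telomere repeat unit), GAGAGA, GTTCNANNC (the core of the B box of RNA polymerase III genes) and CACGTG (an E box). The windows of mir-58.1, mir-51, the mir-54 to mir-56 cluster and mir-52 hold the 4 strongest of all summits near microRNA genes, and those of mir-35 and mir-80 stand for weaker members of 2 further families.
mir-58.1, chrIV:3232702-3232801: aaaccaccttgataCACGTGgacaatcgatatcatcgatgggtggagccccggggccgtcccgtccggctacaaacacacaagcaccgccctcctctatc
mir-51, chrIV:11026122-11026221: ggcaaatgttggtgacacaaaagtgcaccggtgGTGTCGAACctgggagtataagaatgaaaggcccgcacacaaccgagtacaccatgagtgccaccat
mir-54 to mir-56, chrX:13144352-13144451: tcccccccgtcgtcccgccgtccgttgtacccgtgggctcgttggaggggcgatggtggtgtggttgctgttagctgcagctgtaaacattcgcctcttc
mir-52, chrIV:14033722-14033821: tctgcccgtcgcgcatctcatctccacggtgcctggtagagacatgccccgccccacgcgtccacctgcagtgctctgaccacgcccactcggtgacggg
mir-35, chrII:11537194-11537293: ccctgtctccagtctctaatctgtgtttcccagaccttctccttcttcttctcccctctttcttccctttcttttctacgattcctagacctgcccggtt
mir-80, chrIII:8865520-8865619: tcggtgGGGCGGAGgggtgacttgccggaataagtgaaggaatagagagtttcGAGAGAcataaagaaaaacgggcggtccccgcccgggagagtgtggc
The fixed words were not common to these windows: the strongest, at mir-58.1, holds CACGTG, that of mir-51 holds the reverse complement of GTTCNANNC, that of mir-80 holds CTCCGCCC and GAGAGA, and the other 3 hold none.

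Within 1000 bp, 38 of the 261 microRNA genes had a reproducible summit, which is 14.6% (95% exact Clopper-Pearson interval 10.5 to 19.4%, counting error only). Over all other nuclear genes the share was 7.11%. These include 15363 piRNA genes, of which 1.44% had a summit, which lowers that share. Measured from the annotated 5′ end, which gives long and short genes the same window, 36 microRNA genes (13.8%) had a summit within 1000 bp, against 5.58% of all other genes and 5.33% of protein-coding genes. By the same rule snRNA genes and the genes annotated as ncRNA each had 12.4%, near the microRNA share. Neighbouring microRNA genes share summits: the 38 genes fall into 25 loci with 32 summits. Counted as 29 clusters plus 180 lone genes, 25 of 209 units (12.0%) had a summit. A cluster spans more DNA than a single gene and counts as called through any member, so this share is not on the footing of the 7.11%. Lone microRNA genes, the closest counterpart of single genes, had a summit in 16 of 180 cases (8.89%), beside 7.11% of all other genes and 8.58% of protein-coding genes. Reading any base gives longer genes a wider window, so these shares are not on one footing. F09A5.15 counts as lone because clusters join genes of one strand, but it was called through the summits of mir-54 to mir-56. The rest of the called genes lay in 9 of the 29 clusters.

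At 250 bp the picture was different. Only 13 microRNA genes (4.98%, interval 2.68 to 8.37%) had a reproducible summit that close, near the 4.38% of all other genes. From the 5′ end the same 13 genes set against 2.91% of all other genes gave a ratio of 1.71, and the share for protein-coding genes was 2.08%. The interval of the microRNA share, again 2.68 to 8.37%, holds the 2.91% of all other genes but not the 2.08%. The piRNA genes, with 0.137% to any base and 0.124% from the 5′ end, lower both shares of all other genes and so raise the ratio. The 250 bp window covers 0.953% of the nuclear genome around reproducible summits, and the 1000 bp window 3.64%. Measured to any base, the share of microRNA genes lay just under the 5.14% of protein-coding genes. From the 5′ end it lay between protein-coding genes and the short genes with many summits, since 29.1% of tRNA genes and 19.1% of snoRNA genes had one within 250 bp of the 5′ end.

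**Figure D1:**
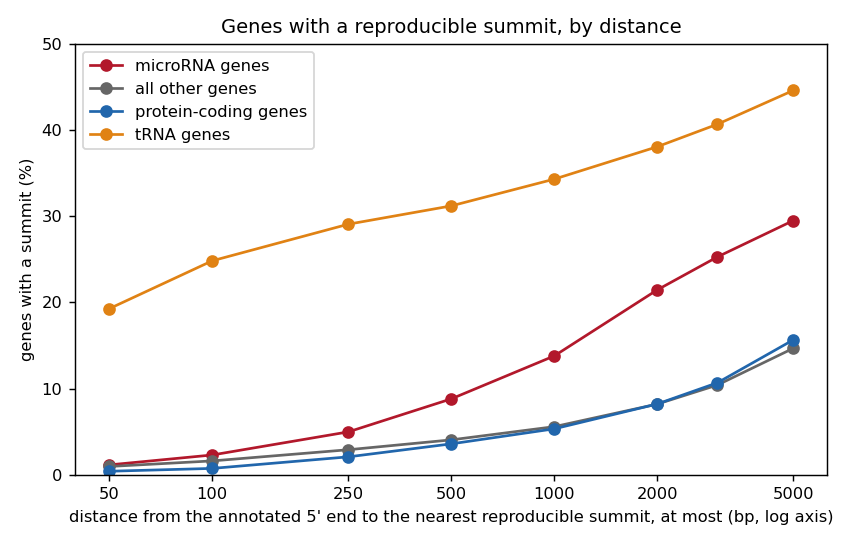
Share of genes (y axis, percent) with a reproducible summit at no more than the distance on the x axis (bp, log axis) from the annotated 5′ end, for microRNA genes, all other genes, protein-coding genes and tRNA genes. The microRNA line lies close to the other genes at 50 bp (3 of 261 genes) and above them at 1000 bp (36 genes), and stays below the tRNA line throughout.

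The share of microRNA genes rose with distance, as a cumulative share must, and so did that of all other genes. From the 5′ end it was 3 genes at 50 bp (1.15%, against 0.965% of all other genes) and 6 at 100 bp (2.30% against 1.61%). It was 23 at 500 bp (8.81% against 4.05%), 56 at 2000 bp (21.5% against 8.20%) and 77 at 5000 bp (29.5% against 14.7%). The median microRNA gene lay 15378 bp from the nearest reproducible summit, and the most distant 548337 bp. Just inside the 250 bp limit was mir-82 (signal 106.4) and just outside it mir-58.1 at 274 bp (278.1). Just inside the 1000 bp limit was mir-4923.1 at 947 bp (154.6), and just outside it mir-41 at 1064 bp (135.6). The limit therefore divides the mir-35 cluster and leaves the strongest microRNA locus out of the 250 bp count.

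Summits lay mostly before the microRNA genes. Of the 32 summits, 20 were upstream of the nearest microRNA gene, 3 inside one (mir-61, mir-45 and mir-2211) and 9 downstream. Of the 13 within 250 bp, 10 were upstream, 3 inside and 0 downstream. Counted as pairs of gene and summit, 21 fell in the 500 bp upstream of a microRNA 5′ end and 6 in the 500 bp downstream. Around protein-coding 5′ ends the counts were 600 and 132, so both classes had more summits upstream. The annotated 5′ end of most microRNA genes is the end of the hairpin, and the start of the primary transcript is not given in the annotation used here.

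**Figure D2:**
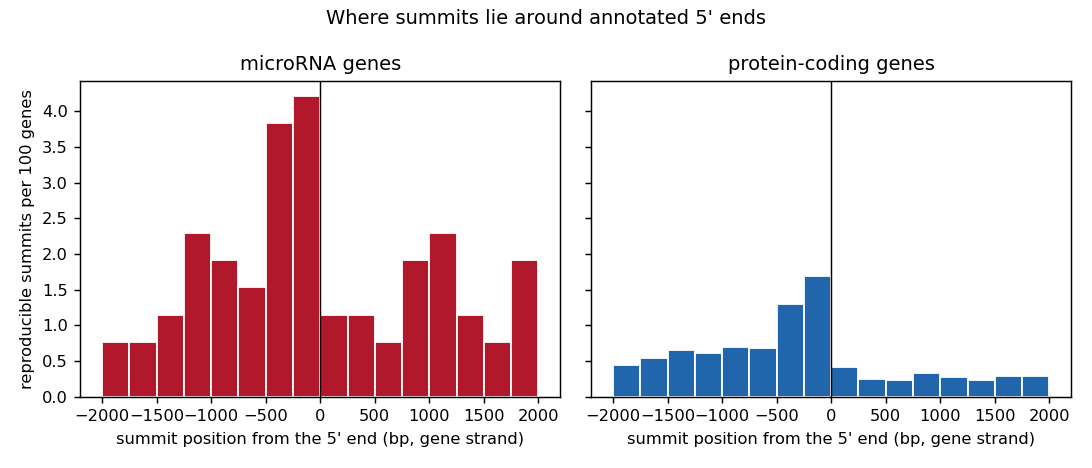
Reproducible summits per 100 genes (y axis) in bins of 250 bp by position from the annotated 5′ end on the strand of the gene (x axis, bp), for 261 microRNA genes on the left and 19973 protein-coding genes on the right. The tallest bin of both panels is the 250 bp just upstream, with 11 pairs for microRNA genes and 339 for protein-coding genes.

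The mir-51 family had the highest median signal of the listed families (385.7): 5 of its 6 members had a reproducible summit within 1000 bp, 3 of them within 250 bp. In C. elegans the family is known for its role in attaching the pharynx during embryogenesis. At mir-51 the summit lay 60 bp upstream of the hairpin, outside protein-coding genes, with a pooled signal of 421.7 (rank 94 of 1945), 237.3 in replicate 6 (rank 124) and 200.8 in replicate 7 (rank 59). Both replicates thus placed mir-51 near the top of their lists.

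At mir-52 (chrIV:14034008-14034107, plus strand) 3 reproducible summits followed each other upstream, at 32, 236 and 1043 bp with pooled signals of 281.2, 370.2 and 222.9. The summit at 32 bp was matched in both replicates, at 146.5 in replicate 6 and 140.4 in replicate 7. The one at 236 bp had 247.8 in replicate 6 and no summit within 100 bp in replicate 7. The mir-54, mir-55 and mir-56 cluster lies in an intron of F09A5.3 on the opposite strand. It had a summit on both sides: 166 bp upstream of mir-54 at 252.7 (149.1 and 112.7 in replicates 6 and 7) and 289 bp downstream of mir-56 at 385.7 (230.8 and 154.5). F09A5.15, annotated on the other strand over mir-55, shares both summits and is 1 of the 38 genes.

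The remaining member, mir-53, has the mir-51 summit 1421 bp downstream. Its own upstream peak, at 220 bp, reached 83.68 in the pooled list and 70.9 in replicate 6 (rank 1792). Replicate 7 had no peak there, and its highest within 1000 bp, downstream of the gene, was 18.74 (rank 22129). Replicate 6 alone would place it among its 1945 strongest peaks, and replicate 7 would not.

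**Figure D3:**
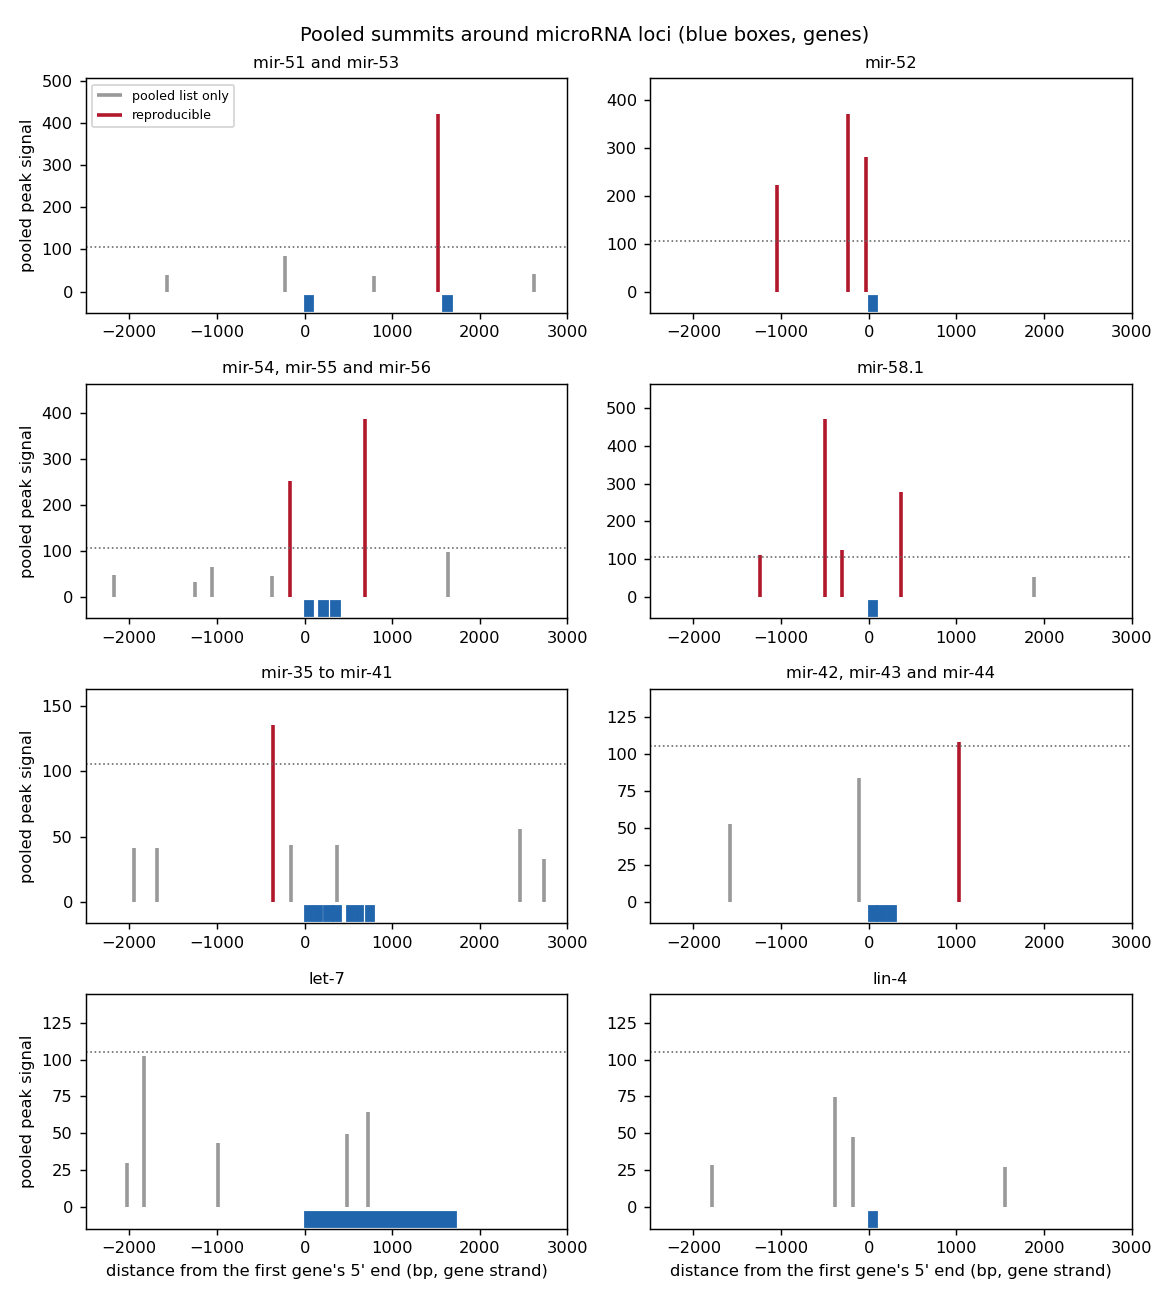
Pooled summits around 8 microRNA loci: the y axis is the pooled peak signal, the x axis the distance (bp) from the 5′ end of the leading gene on its strand, blue boxes are microRNA genes, red bars are reproducible summits, grey bars are in the pooled list only, and the dotted line is the lowest reproducible signal (105.3). The mir-51, mir-52, mir-54 to mir-56 and mir-58.1 loci each hold a summit of at least 370.2, up to 470.2 at mir-58.1. Weaker reproducible summits lie beside it at mir-52, mir-54 to mir-56 and mir-58.1, while let-7 and lin-4 hold grey bars alone.

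The mir-35 family is abundant in oocytes and early embryos, and 7 of its 8 members had a reproducible summit within 1000 bp, 0 of them within 250 bp. The count rests on 2 summits. The cluster of mir-35 to mir-41 (chrII:11537608-11538404, plus strand) lies in an intron of Y62F5A.9 on the opposite strand, with 1 reproducible summit 364 bp upstream of mir-35. Its pooled signal was 135.6 (rank 1205), with 77.46 in replicate 6 (rank 1503) and 59.66 in replicate 7 (rank 1004). The signal was similar in rank in both replicates and lay in the weaker part of the reproducible list. A pooled peak within 1000 bp of mir-41 had 43.97.

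The other summit of the family, at mir-42, lay 940 bp downstream of mir-42 and 727 bp downstream of mir-44, beyond the cluster's end. Its signal was 108.3 pooled, 47.9 in replicate 6 (rank 3619) and 59.17 in replicate 7 (rank 1028). It also lay 149 bp from the snoRNA gene ZK930.15, and without summits near short noncoding genes 6 family members were counted. Nearer to mir-42, 116 bp upstream, the pooled list held a peak of 83.59 that was not reproducible. Whether the snoRNA gene has a part in the downstream summit was not tested.

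The bantam family is known in C. elegans for effects on body size through TGF-beta signalling. The highest signal of all microRNA loci was at its member mir-58.1 (chrIV:3233254-3233350, plus strand), an abundant microRNA in an intron of phkb-1 on the same strand. The main summit, 502 bp upstream, had 470.2 pooled (rank 78), 274.3 in replicate 6 (rank 86) and 193.1 in replicate 7 (rank 68). Further reproducible summits lay 301 bp upstream (124.3), 1241 bp upstream (111.4) and 274 bp downstream (278.1). The 5′ end of phkb-1 was 10814 bp away, so this group of summits was not at the annotated host promoter.

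At mir-80 the summit lay 203 bp upstream with 153.9 pooled, 89.04 in replicate 6 and 59.05 in replicate 7. At mir-82, in an intron of gid-2 on the same strand, it lay upstream, just inside 250 bp, with 106.4, 45.62 and 52.96, close to the lower end of the reproducible list. Its neighbour mir-81, in the same gene on the other strand, had no pooled peak within 1000 bp, but a reproducible summit of 400.5 lay 1468 bp downstream. mir-58.2 had a pooled peak of 38.93 only, and the listed name mir-1834 matched no gene symbol in the annotation.

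The other families had fewer or weaker summits. In the mir-44 family 3 of 4 members had a summit within 1000 bp: mir-45 (115.9, inside the gene), mir-61 (132.5, inside) and mir-44, which shares the 108.3 summit of mir-42. The mature 3p sequences of mir-44 and mir-45 are identical (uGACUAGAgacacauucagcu, seed in capitals). In the mir-2 family mir-43 and mir-250 of 4 members were called, each through a summit nearer to a cluster partner. The mir-61 and mir-250 summit also lay in the promoter of F55A11.4, with 65.85 in replicate 6 (rank 2078) and 67.14 in replicate 7 (rank 781). In the mir-72 family mir-73 and mir-74 shared a summit 124 bp upstream of mir-73 at 117.2. The mir-64 family, in an intron of gcn-1 apart from mir-63, had 0 of 5 members called.

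Of 17 single conserved or tissue microRNAs 3 were called. mir-87 had a summit 311 bp upstream in kup-1 (193.5 pooled, 105.4 and 84.08 in replicates 6 and 7), and mir-90 one 719 bp downstream (162.0, 76.9 and 81.37). mir-228, known for expression in glia, had one 313 bp upstream at 111.3 that the replicates did not share, with 98.97 in replicate 6 (rank 967) and no summit within 100 bp in replicate 7. The muscle microRNA mir-1 reached 83.41 in the pooled list and the neuronal mir-124 reached 80.96, both under the reproducible list, while lsy-6 and the intestinal mir-60 had no pooled peak within 1000 bp.

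Over all family lists, 25 of 61 listed genes (41.0%) had a reproducible summit within 1000 bp and 13 of the 200 unlisted ones (6.5%). At 250 bp the counts were 9 (14.8%) and 4 (2.0%). The share of the unlisted genes lay near the 7.11% of all other genes. Genes are counted singly here although clusters share summits: of the 25 listed genes, 6 share the mir-35 summit and 3 the mir-42 summit. The lists do not hold every gene with a family's seed. mir-2209.1 and Y73B6A.17 carry GAGAUCA of the bantam list, and mir-266 and mir-8188 carry GGCAAGA of the mir-72 list. These uncalled genes count as unlisted, which raises the listed share and lowers the unlisted one. The called mir-62, with the seed GAUAUGU of the listed mir-90, also counts as unlisted. The lists were drawn up with earlier results of these data known, so these shares are a description.

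**Figure D4:**
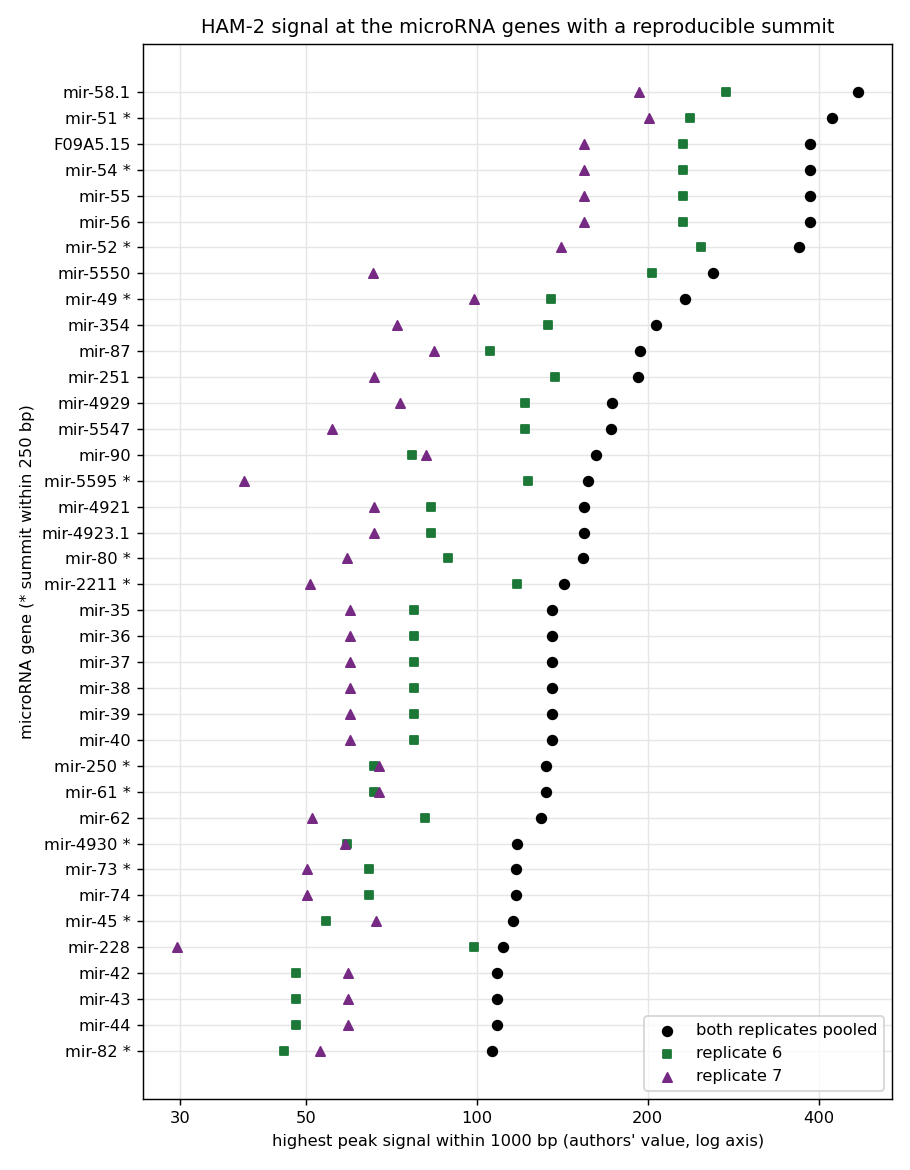
Highest peak signal within 1000 bp (x axis, authors' value, log axis) of the 38 microRNA genes with a reproducible summit, for both replicates pooled (circles), replicate 6 (squares) and replicate 7 (triangles). Pooled values run from 106.4 at mir-82 to 470.2 at mir-58.1, and an asterisk marks the 13 genes with a summit within 250 bp.

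Among the unlisted genes, mir-49 had the strongest summit within 250 bp: 200 bp upstream, outside protein-coding genes, 233.1 pooled, 135.0 in replicate 6 and 98.98 in replicate 7. At mir-251 the summit within 1000 bp was 832 bp upstream at 192.2, and a stronger reproducible one (223.4) lay 1037 bp upstream, beyond the limit. At mir-5595, in an intron of the chromatin remodeller gene nurf-1, the summit was 130 bp upstream at 157.0, with rank 606 in replicate 6 and rank 3105 in replicate 7. At mir-4930, in Y38F2AR.10, it was 85 bp upstream at 117.6. Its rank was 2503 in replicate 6 and 1052 in replicate 7, so the replicate with the lower rank differed between mir-5595 and mir-4930.

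Several unlisted genes had a summit that also belongs to another kind of feature. The summit of mir-5550 (261.0, 650 bp downstream) lay in the promoters of its host kgb-1, a JNK-like kinase gene, and of T07A9.12. That of mir-354 (206.9, 872 bp upstream) lay in the promoters of ekl-4 and the ribosomal protein gene rps-20. The weaker summit of mir-4929 (147.1, 968 bp downstream) lay in the promoter of pqn-27. Its stronger summit (172.8, 335 bp upstream, rank 894 in replicate 6 and 635 in replicate 7) lay inside E01G4.3. One of the summits of mir-5547 (172.3) lay in an exon of sinh-1. The summit shared by mir-4923.1 and mir-4921 (154.6) lay at the tRNA gene Y59E1B.t2. In all, 4 of the 32 summits lay in a protein-coding promoter, 2 within 250 bp of a short noncoding gene, and 14 outside protein-coding genes and their promoters. Which feature a shared summit belongs to was not tested. The list is completed by mir-62 (129.7, 576 bp upstream, in ugt-50) and by mir-2211, with a summit of 127.8 inside the gene and one of 142.2 at 991 bp downstream. The summit of 142.2 had 117.7 in replicate 6 and no summit within 100 bp in replicate 7.

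The intronic microRNA genes are given by the strand of their host, as a description. Of 30 genes in an intron on the opposite strand 12 (40.0%) had a summit within 1000 bp, of 67 on the same strand 7 (10.4%), and of 152 outside protein-coding genes 18 (11.8%). The 12 are 5 loci, since 6 genes belong to the mir-35 cluster and 3 to the mir-54 to mir-56 cluster, and F09A5.15 counts on the same strand through the very summits of mir-54 to mir-56. No share by locus was computed for either strand, so whether the strands differ was not tested. A host with a summit within 1000 bp of its own 5′ end was found for 6 of the 30 and 5 of the 67, beside 5.33% of all protein-coding genes. F09A5.3 alone accounts for 3 of the 6, as host of mir-54, mir-55 and mir-56. Of these microRNA genes 5 and 3 were themselves called. In the same-strand setting the 3 were mir-4929 in E01G4.3, mir-62 in ugt-50 and F09A5.15 in F09A5.3, so the other 4 called genes (mir-58.1, mir-87, mir-90 and mir-82) had no summit at the host's annotated start.

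Counted by gene, 22 of 81 clustered genes (27.2%) were called, against the 8.89% of lone genes, and 6 of the 22 share 1 summit. By chromosome, 13 of 49 genes on II were called and 12 of 74 on X. On I it was 2 of 33 (6.06%) and on III 2 of 27 (7.41%), about the 7.11% of all other genes over the whole genome. On II, 9 of the 13 come from the mir-35 and mir-42 clusters.

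let-7 and lin-4 had no reproducible summit within 1000 bp. The let-7 gene (chrX:14743590-14745321, minus strand; hairpin 14744173 to 14744271) had its nearest reproducible summit 8386 bp upstream, with 117.2. Within the annotated gene, 326 bp upstream of the hairpin, the pooled list held a peak of 64.38 (rank 5109 of 30000). Replicate 7 held one there of 47.96 (rank 1715) and replicate 6 one of 32.3 (rank 8074) 568 bp upstream of the hairpin. The gene was therefore among the 1945 strongest peaks of replicate 7 alone. Further out, 1831 bp upstream of the 5′ end, the pooled list held a peak of 102.2 (rank 2046), just under the lowest reproducible signal of 105.3, with 66.54 in replicate 6 (rank 2035) and 39.96 in replicate 7 at 1914 bp (rank 2838).

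The lin-4 gene (chrII:5902254-5902347, plus strand) lies in an intron of F59G1.4 on the same strand. Its nearest reproducible summit was 48720 bp upstream. Pooled peaks lay 385 bp upstream at 74.73 (rank 3691) and 182 bp upstream at 47.36 (rank 10406). In the replicates the strongest were 54.13 in replicate 6 at 362 bp (rank 2910) and 33.89 in replicate 7 at 205 bp (rank 4789). Both replicates held a peak upstream of lin-4, below their 1945 strongest.

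The relatives of both genes were likewise without a reproducible summit within 1000 bp. In the let-7 family the highest pooled signals were 60.45 at mir-48, 45.62 at mir-794, 41.36 at mir-84, 33.85 at mir-795 and 33.31 at mir-241, and mir-793 had no pooled peak. All lay under the median of 46.7 over microRNA genes with a pooled peak but no reproducible summit, except mir-48 and let-7. mir-237, of the lin-4 family, reached 43.89, and a reproducible summit of 186.5 lay 1986 bp downstream of it. With 0 of 7 and 0 of 2 members called, against 14.6% of all microRNA genes, lists this small give little room for a comparison.

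The uncalled genes were not empty of peaks. Of the 223, 118 had a peak in the pooled list within 1000 bp, with signals of 27.54 to 102.7, and 105 had none. In 60 genes no list held a summit. The highest uncalled signals within 250 bp were 102.7 at mir-2, 101.1 at mir-79, 100.4 at mir-8204, 90.31 at mir-46 and 89.71 at mir-244, the leading 3 of which lay a few units under the reproducible list. Among called genes the highest pooled signal ran from 106.4 to 470.2 with a median of 148. The 32 summits were not unusual for the list: 18 (56.2%) lay in its upper 50% by signal and their median was 155.8 against 152.4 over all 1945.

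The replicates ordered the microRNA genes alike in broad terms. Within 1000 bp replicate 6 had a summit at 153 genes and replicate 7 at 169, with 125 shared and 64 genes in neither. Over the 125 the Spearman correlation of the highest signals was 0.709 and the Pearson correlation of their log2 values 0.792, as a description over genes that share libraries and, in clusters, peaks. Of the 38 called genes 26 were among the 1945 strongest peaks of both replicates, 2 of replicate 6 only and 10 of replicate 7 only. For the 13 genes called within 250 bp the split was 6, 1 and 6. Counting by gene repeats the summits that clusters share. Of the 32 summits, 20 were among the 1945 strongest of both replicates. Within 100 bp, replicate 6 held a summit at 32 of them and replicate 7 at 29. None of the 223 uncalled genes was in the top of both. The reproducible list was itself thresholded on the agreement of the replicates. These splits therefore follow in part from how the list was made and are no separate measure of agreement.

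**Figure D5:**
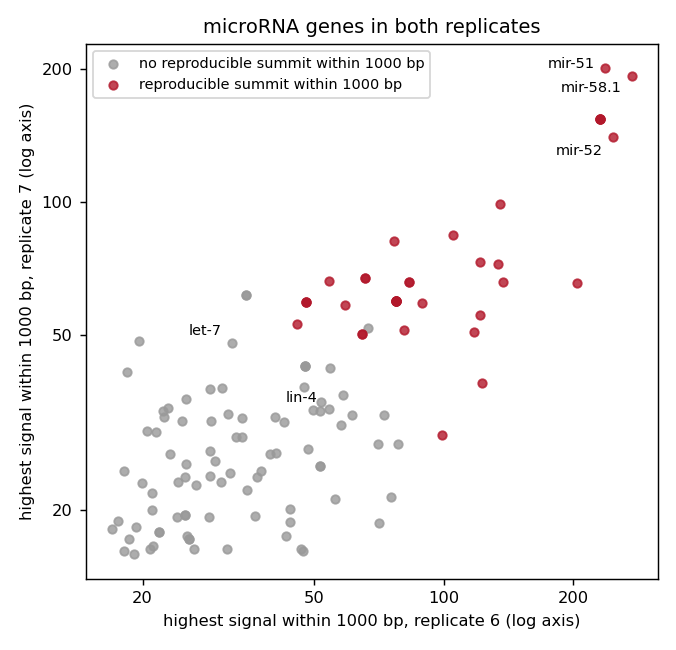
Highest peak signal within 1000 bp of each microRNA gene in replicate 6 (x axis, log axis) and replicate 7 (y axis, log axis), for the 125 genes with a peak in both lists; red points have a reproducible summit. mir-58.1, mir-51 and mir-52 lie at the upper right, and let-7 (32.3 and 47.96) and lin-4 (54.13 and 33.89) among the grey points.

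The DNA under the 32 summits had a median GC content of 52.5% (34.0 to 68.0%) in 100 bp, against 49.0% over all reproducible summits. GAGAGA occurred in 11 of the 32 windows (34.4%), against 25.0% of all reproducible summits and 25.3% of the 300 bp upstream of all microRNA genes. CTCCGCCC, GTTCNANNC and CACGTG each occurred in 1 window (3.12%), and TTAGGC in 0, where all summits had 1.90%, 7.15%, 2.01% and 8.59%. In the upstream windows of all microRNA genes those shares were 7.28%, 13.4%, 4.21% and 5.75%. A window of 300 bp has more room for a word than one of 100 bp, so the upstream shares are not on the footing of the summit shares.

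Genes that act on microRNAs were also read, as protein-coding genes with a reproducible summit within 1000 bp of the annotated 5′ end. Of 20 biogenesis and silencing genes 7 (35.0%) had one, beside 5.33% of protein-coding genes. They were ain-1, the GW182-type partner of Argonaute (601.8, 699 bp upstream), nhl-2, a TRIM-NHL cofactor (357.0), the Argonautes alg-5 (241.2) and alg-2 (177.7), hrpk-1, a homologue of hnRNP K (192.5), the RNA helicase gene cgh-1 (183.3) and vig-1 (136.5). The processing enzymes drsh-1 (Drosha), pash-1 (its partner) and dcr-1 (Dicer), and the Argonaute alg-1, had none, and ntl-1 was not matched. The signal at ain-1 was above that of every microRNA locus.

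Of 15 targets and regulators of let-7 and lin-4, 5 (33.3%) had a summit, beside 5.33% of protein-coding genes. lin-14, the target of lin-4, had one 74 bp upstream at 191.8, and lin-28, an inhibitor of let-7 processing, one 828 bp downstream of its 5′ end at 148.7. The others were kin-20 (254.9), nhr-23 (223.6) and lin-66 (211.8). lin-41, the main target of let-7, and hbl-1, daf-12, lin-29 and lin-42 had none by this rule, which reads a single annotated 5′ end and leaves out summits deeper in a gene. These lists too were chosen with earlier results of these data known.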

How the data were processed

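ChIP-seq peak lists of 2 libraries (biological replicates 6 and 7, a single group) were analysed. Per the labels, chromatin was sonicated to 200 to 800 bp, the antibody was against GFP and the assembly is ce11. Per the deposited listings, peaks were called for each replicate and for both pooled, and the reproducible list passed a threshold on the irreproducible discovery rate. The signal value of each peak was deposited by the authors and served for ranking within a list. The deposited −log10 q-value was not used for ranking. The read depth, aligner and caller were not given in the sources used here. No precision can therefore be derived from depth, and the control library was not analysed here. Replicates share a line, and whether they were separate cultures is not stated beyond their label.

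Summits were the peak start plus the deposited offset, and positions are 1-based. MicroRNA genes came from Ensembl release 115 and all 261 matched a RefSeq symbol. In every list the last peak of each chromosome ended inside the WBcel235 chromosome. Distances of 250 and 1000 bp were taken to any base of a gene or to its 5′ end. A cluster joined same-strand genes up to 10000 bp apart, and a replicate peak matched within 100 bp. No test was run, because the design has 1 group and genes share peaks; counts stand beside those over all other genes, with exact intervals at 95%. The text names let-7, lin-4, every microRNA gene with a reproducible summit, the 5 strongest uncalled ones within 250 bp, list members and hosts; other relatives and neighbours were named after their values were seen. The members and lists were chosen with earlier results of these data known. The distance rule and the merging of genes into loci were tested on simulated summits placed at known distances from microRNA genes. The word search was tested on short made-up sequences, and the other steps were not tested in this way. Tables were handled with pandas 2.3.3 and numpy 2.4.6 under Python 3.11.15, intervals came from scipy 1.17.1, and figures were drawn with matplotlib 3.10.9.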

Additional observations from a re-analysis of the deposited data

How the results depend on the processing

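The count of microRNA genes with a summit within 250 bp, 13, became 6 with the upper 50% of reproducible peaks, 23 with a doubled number of pooled peaks (3890), 6 with the 1271 peaks in the strongest of both replicates, 22 with peak intervals in place of summits, 6 at 100 bp and 23 at 500 bp. The 1000 bp count, 38, became 19 and 61 with the stricter and looser peak sets, 23 at 500 bp and 58 at 2000 bp, and the 25 loci became 15 and 43. The ratio of 5′ end shares at 250 bp, 1.71, was 5.23 against genome bases. Apart from genome bases, the ratio was lowest at 1.15, with the peaks in the strongest of both replicates. It was highest at 2.56, without summits in coding promoters. Leaving out replicate 6 or replicate 7 gave 19 and 11 genes at 250 bp, 42 and 33 at 1000 bp, 28 and 23 loci, and ratios of 2.45 and 1.34. In the other 27 settings of these 4 results, those included, values stayed within 1.5 times the reported count or inside the interval of the ratio. Fewer or more peaks and other distances change the counts by construction.

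Family counts were recomputed under settings chosen after seeing the data. The mir-51 family kept 5 or 6 members under every alternative peak set and 3 at 250 bp. The mir-35 family had 0 members in the upper 50% of peaks and at 250 bp, 2 at 500 bp and 8 at 2000 bp. The let-7 family had 1 member, let-7, in replicate 7 alone, and the lin-4 family 1 with the doubled peak set and 1 at 2000 bp. No paired analysis was possible because the design has a single group. Depth is unknown, so a missing peak does not show that a gene is unbound.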
